A study of Arabidopsis thaliana with 4 samples.

Results

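GTR1 (AT3G47960), GTR2 (AT5G62680), AT1G68570 and AT3G21670 are genes of the NRT1/PTR (NPF) family of Arabidopsis thaliana, which encodes proton-coupled membrane transporters of nitrate, peptides, plant hormones and glucosinolates. The 4 genes were found by locus in the array annotation, which gave each of them 1 probe set of its own, among 13356 genes with such a probe set. All 4 were bright enough to be tested. The rule itself used no measured difference between arrays, but the genes were chosen with earlier results of these data known. GTR1 and AT3G21670 lie on chromosome 3, GTR2 on chromosome 5 and AT1G68570 on chromosome 1, and the RefSeq gene table names them NPF2.10, NPF6.4, NPF2.11 and NPF3.1 respectively.

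The series held 4 Affymetrix arrays of whole-plant RNA, 2 from the ppi2 mutant at 20 days and 2 from wild-type plants at 10 days, all on agar plates with no further treatment. In ppi2 plants the chloroplast import receptor TOC159 is lost, and the seedlings are pale. Genotype and age differed together between the groups and cannot be told apart. The titles number the arrays as biological replicates, and nothing says whether the plants were grown apart. The p-values therefore cover the spread between arrays, which may be technical.

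NPF proteins span the membrane many times, and many of them move their substrate into the cell together with protons. Glucosinolates are sulfur-rich defence compounds of the cabbage family. GTR1 and GTR2 import them into cells, and in Arabidopsis both act in loading glucosinolates into the phloem and so into seeds. AT1G68570 encodes a transporter for which nitrate and gibberellin have been described as substrates. AT3G21670 belongs to the same subfamily as NRT1.1 (NPF6.3), the nitrate transporter that also acts as a nitrate sensor in roots.

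The arrays did not sort by label. Over the tested probe sets, the closest arrays carried different labels: ppi2 replicate 1 and wild type replicate 2 had r = 0.981, and ppi2 replicate 2 and wild type replicate 1 had r = 0.953. The other pairs had r between 0.798 and 0.823. These values are taken across genes, which are not independent replicates. Signals below are MAS5 intensities on a linear scale, given for replicates 1 and 2 of each group in that order. The light-harvesting gene LHCB4.2 read 841 and 29459 in ppi2 and 30097 and 714 in wild type. Levels were not compared between genes, since probe sets differ in brightness.

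Groups are named here as the labels give them, although LHCB4.2 separated the replicates of each label and not the labels. No probe set was assigned to TOC159 in the annotation used, so the lost gene could not check them. Arrays that carry each other's label within one replicate number and plants that differed between cultures cannot be told apart in these files. Every level and difference given below for ppi2 or wild type therefore holds for the arrays so labelled.

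GTR1 read nearly the same on every array. Its signals were 1125 and 987 in ppi2 and 1054 and 893 in wild type. From highest to lowest the arrays ran ppi2 replicate 1, wild type replicate 1, ppi2 replicate 2 and wild type replicate 2, so the groups overlapped. The highest signal was 1.26 times the lowest, and 13.1% of the tested probe sets had a smaller range on the log2 scale. The ppi2 mean was 1056 ± 97.0 (SD, n = 2) and the wild-type mean 974 ± 114 (SD, n = 2), so the means differed by less than the SD of either group.

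GTR2, the partner of GTR1 in glucosinolate import, differed between arrays of the same label. Its signals were 1627 and 873 in ppi2 and 735 and 1492 in wild type. The high arrays were thus ppi2 replicate 1 and wild type replicate 2, the low arrays were the remaining pair, and the groups overlapped. Replicates of ppi2 differed 1.86-fold and those of wild type 2.03-fold. The group means were 1250 ± 533 and 1114 ± 535 (SD, n = 2 each), so neither group stood outside the spread of the other.

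AT1G68570, the gibberellin and nitrate transporter gene, was high and low on the same arrays as GTR2. Its signals were 607 and 318 in ppi2 and 287 and 647 in wild type. The highest array, wild type replicate 2, was 2.25 times the lowest, wild type replicate 1, which is the fold between both replicates of a single label. The group means were 463 ± 205 for ppi2 and 467 ± 255 for wild type (SD, n = 2 each). On the linear scale ppi2 was the lower group and on the log2 scale the higher one, both by far less than the spread of replicates.

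AT3G21670, the relative of the nitrate sensor, was highest on a single array. Its signals were 473 and 747 in ppi2 and 527 and 576 in wild type. The ppi2 replicates were thus the highest and the lowest array, 1.58-fold apart, and enclosed both wild-type values, which were 1.09-fold apart. The group means were 610 ± 193 and 551 ± 34.4 (SD, n = 2 each).

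**Figure D1:**
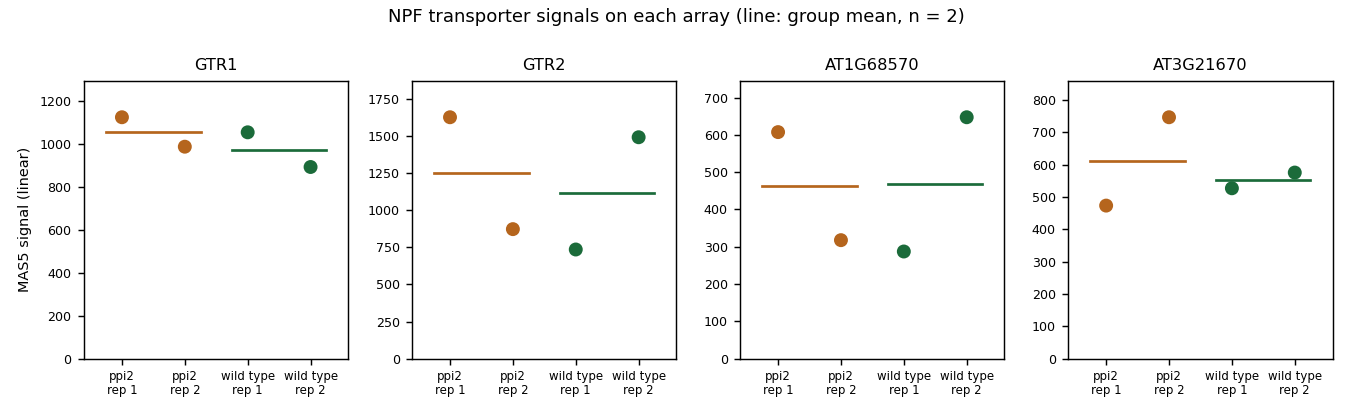
MAS5 signal on a linear axis (vertical) of GTR1, GTR2, AT1G68570 and AT3G21670 on each of the 4 arrays (horizontal), with points for arrays and lines for group means of 2 arrays. GTR1 is level from 893 to 1125, GTR2 and AT1G68570 are high on ppi2 replicate 1 and wild type replicate 2, and AT3G21670 is highest on ppi2 replicate 2 at 747.

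The comparison the labels imply is ppi2 at 20 days against wild type at 10 days. Between the arrays as labelled, none of the 4 transporter genes differed beyond the spread of replicates. This rests on the labels, which could not be checked, and does not show that the mutant and wild type had equal levels. The log2 difference, ppi2 minus wild type, was 0.12 for GTR1 (SE 0.28, 95% interval -0.62 to 0.86). For GTR2 it was 0.18 (SE 0.52, 95% interval -1.18 to 1.55). For AT1G68570 it was 0.03 (SE 0.55, 95% interval -1.42 to 1.47), and for AT3G21670 it was 0.11 (SE 0.33, 95% interval -0.77 to 0.99). The intervals of GTR2 and AT1G68570 thus hold differences of more than 2-fold in either direction, while those of GTR1 and AT3G21670 stay inside 2-fold. Leaving out a single array turned each sign: GTR2 was -0.26 and AT1G68570 -0.43 without ppi2 replicate 1, and -0.32 and -0.55 without wild type replicate 1. AT3G21670 was -0.22 without ppi2 replicate 2, and GTR1 was -0.00085 without wild type replicate 2. Unadjusted p-values lay at 0.692 for GTR1, 0.737 for GTR2, 0.965 for AT1G68570 and 0.757 for AT3G21670, and every adjusted p was 1 (limma, Benjamini-Hochberg over 13604 probe sets). Among all tested probe sets, 0 were called at an adjusted p under 0.05, which is 0% in each direction, and 8 (0.0588%) had an unadjusted p under 0.05 in limma, none of them an NPF gene. That share is far below the 0.05 that independent arrays without any difference would give. Replicates of a label were less alike than arrays across labels, which widens the error of this fit. It could therefore call little, and the lack of calls is not an ordinary null result.

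**Figure D2:**
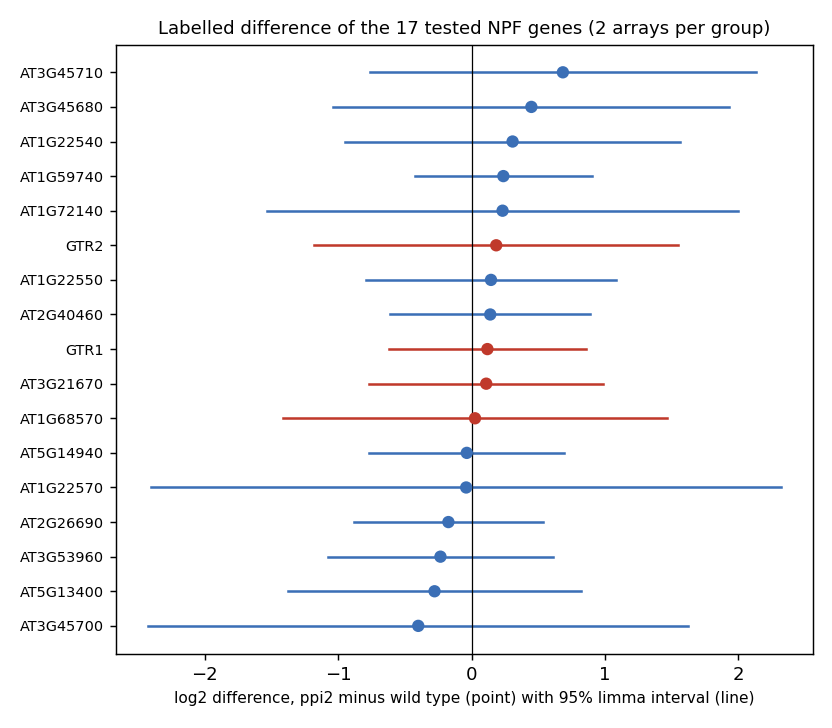
Log2 difference, ppi2 minus wild type (horizontal), of the 17 tested NPF genes (vertical), with points for the limma estimate, lines for its 95% interval and red for GTR1, GTR2, AT1G68570 and AT3G21670. All 17 intervals include 0, and that of AT1G22570 comes from the largest SE, 0.89.

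Differences were also taken within each replicate number, where GTR2 and AT1G68570 had opposite signs. They rest on 1 array per arm, so they have no error and were not tested. In number 1, GTR2 was 2.21-fold higher on the ppi2 array (log2 difference 1.14), and in number 2 it was 1.71-fold higher on the wild-type array (-0.77). AT1G68570 was 2.11-fold higher on the ppi2 array in number 1 (1.06) and 2.04-fold higher on the wild-type array in number 2 (-1.01). Opposite signs of this kind were common: 41.1% of all tested probe sets were higher in ppi2 in number 1 and lower in number 2. In 5.76% this was so by at least 2-fold in both, as for AT1G68570, which only just met that cut. After quantile normalization its number 2 difference was -0.95, inside 2-fold.

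GTR1 had the same sign in both numbers, with log2 differences of 0.09 and 0.14, and so did 9.77% of the tested probe sets in that direction. After quantile normalization the first of these was 0.00 and the second 0.22. AT3G21670 ran opposite to GTR2, with -0.15 and 0.37, a direction shared by 36.8% of the tested probe sets. With each array centred on its median, the difference of AT3G21670 in number 1 was -0.02, and the median over all tested probe sets in that number moved from 0.02 to 0.15.

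**Figure D3:**
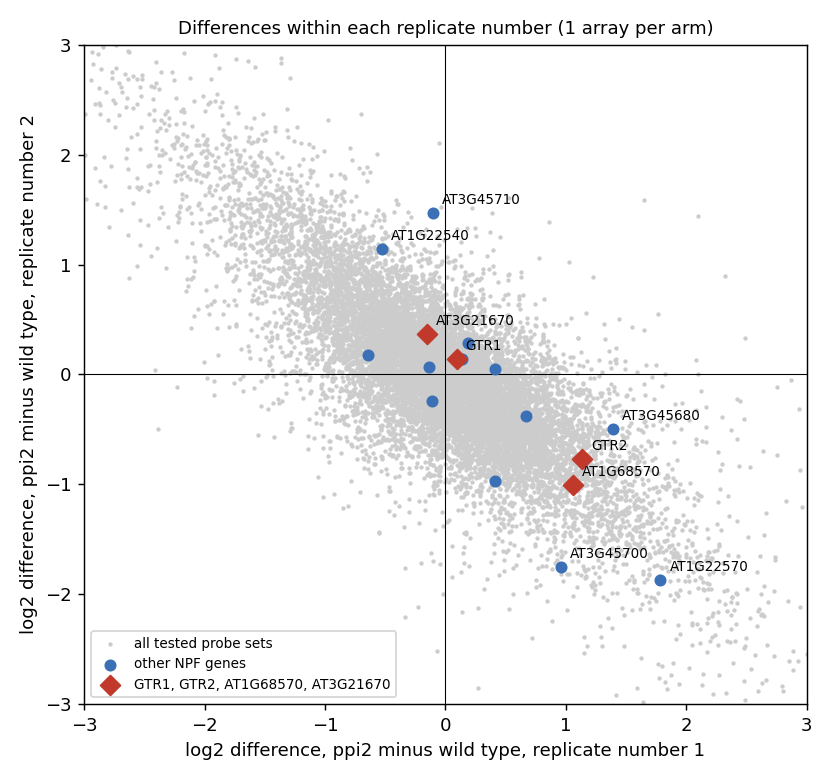
Log2 difference, ppi2 minus wild type, in replicate number 1 (horizontal) and number 2 (vertical) for all tested probe sets (grey; 247 lie outside the axes), the other tested NPF genes (blue) and GTR1, GTR2, AT1G68570 and AT3G21670 (red diamonds). GTR2 and AT1G68570 lie in the lower right, at 1.14 and -0.77 and at 1.06 and -1.01, and GTR1 lies near the origin.

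GTR2 and AT1G68570 were alike over the arrays although they belong to different NPF subfamilies. The Euclidean distance between their log2 signals over the 4 arrays, each gene centred on its own mean, was 0.19. Of 7237 named genes compared, 75 (1.04%) were closer than that to GTR2, and 71 (0.981%) were closer to AT1G68570. The distance between GTR1 and GTR2, which share a substrate, was 1.02. Of the genes, 78.0% were closer to GTR1 than GTR2 was, and 47.9% were closer to GTR2 than GTR1 was. GTR1 lay 0.64 from AT3G21670. All of these distances rest on 4 arrays and were not tested.

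By the same distance, the genes nearest to GTR2 were AT5G15780 (0.03), MAP1A, a methionine aminopeptidase (0.04), and AT1G63840 (0.06). AT5G15780 read 1072 and 566 in ppi2 and 470 and 968 in wild type. Nearest to AT1G68570 were AT3G24530, AT1G15420 and AT3G54400, each at 0.04. AT3G24530 read 720 and 375 against 351 and 772. Nearest to GTR1 were AT4G04320, RAPTOR2, named for a partner of the TOR kinase, and AT1G77370, at 0.04, 0.04 and 0.05, and RAPTOR2 read 202 and 173 against 189 and 163. Nearest to AT3G21670 were AT1G33330 (0.06), AT3G10260 (0.07) and AT2G46200 (0.07), and AT1G33330 read 272 and 441 against 298 and 321. For comparison, the median distance over all genes was 1.04 from GTR2, 1.10 from AT1G68570, 0.64 from GTR1 and 0.77 from AT3G21670.

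The rest of the NPF family had mixed patterns. Of 53 family genes, 27 carry an NRT1/PTR name in the RefSeq gene table and the others were listed by locus from the family's nomenclature. A probe set of their own was assigned to 34, and 17 of these passed the filter on dim signals, the 4 transporters above and 13 others. Of the 17, 11 had a labelled difference above 0, against 48.8% of all tested probe sets, and 13 did so after centring each array on its median, against 59.4%. The median labelled difference was 0.12 over the 17 and -0.01 over all tested probe sets. Without wild type replicate 1 the median of the 17 was -0.07, with 7 of them above 0. The individual differences ran from -0.40 for AT3G45700 to 0.68 for AT3G45710, with unadjusted p from 0.272 to 0.965 and adjusted p of 1 in limma.

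Groups did not overlap for 3 of the 13 other genes, all with small differences. AT1G59740 (NPF4.3) read 455 and 460 in ppi2 and 398 and 376 in wild type. AT2G40460 read 266 and 276 against 241 and 249, so both were higher in ppi2, as were 6.12% of the tested probe sets without overlap. AT2G26690 (NPF6.2), of the subfamily of AT3G21670, read 1462 and 1367 against 1578 and 1614, lower in ppi2, as were 8.14%. The corresponding log2 differences were 0.24 (SE 0.25), 0.14 (SE 0.28) and -0.17 (SE 0.27), each with a limma adjusted p of 1.

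Within the replicate numbers, 7 of the 17 tested NPF genes were higher in ppi2 in number 1 and lower in number 2, 5 were the other way round, 4 were higher in both and 1 was lower in both. The shares over all tested probe sets were 41.1%, 36.8%, 9.77% and 12.3% in the same order. By at least 2-fold in both numbers, AT1G68570 and AT1G22570 were higher then lower, as were 5.76% of the tested probe sets. In the other direction there were 0 of the 17, against 7.14% of the tested probe sets. AT1G22570 read 2275 and 676 in ppi2 and 655 and 2486 in wild type, so the high arrays were those on which GTR2 and AT1G68570 were high. Its log2 differences were 1.79 and -1.87.

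Neighbouring family members did not share one pattern. AT1G22540, AT1G22550 and AT1G22570 follow each other in the order of protein-coding genes on chromosome 1. AT1G22550 read 627 and 395 against 390 and 518, high on the same arrays as AT1G22570 with smaller differences. AT1G22540 read 266 and 552 against 387 and 246, high on the arrays where AT1G22570 was low. On chromosome 3, AT3G45680, AT3G45700 and AT3G45710 lie in one row of 5 NPF genes.

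In that row AT3G45700 read 358 and 84.9 against 181 and 306, and AT3G45680 read 289 and 160 against 105 and 229. Both were highest on ppi2 replicate 1. AT3G45710 read 143 and 244 against 154 and 83.1, and was highest on ppi2 replicate 2. The remaining members of the row, AT3G45690 and AT3G45720, were dim, with signals of 26.7 to 65.3 and 30.5 to 91.9. Near-identical family copies can share labelled RNA on an array, which was not tested, and 1 probe set assigned to both AT3G45660 and NAXT1 was not used.

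Of the remaining 4 tested family members, AT5G13400 read 543 and 295 against 406 and 586, high on the same arrays as GTR2 and lowest on ppi2 replicate 2. AT3G53960 read 307 and 381 against 483 and 337, high on the same arrays as AT1G22540. AT5G14940 was level, at 287 and 345 against 317 and 330, and AT1G72140 read 106 and 205 against 77.4 and 197, high on both replicate 2 arrays. Of the 13, 7 stayed within 2-fold over the 4 arrays, as did 69% of all tested probe sets.

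The 17 dim family members had mean signals between 3.03 and 123, and no single signal above 188. They were AT5G11570, AT3G45720, AT3G45690, AT5G28470, AT1G69860, AT3G25260, AT3G25280, AT1G33440, AT1G27040, AT5G62730, AT5G46040, AT2G38100, AT2G37900, AT3G01350, AT1G72130, AT1G72125 and AT5G19640. Fitted without the filter, 10 were above 0 and 7 below 0 in ppi2, against 46.0% of all probe sets above 0 in that fit. Their smallest unadjusted p was 0.188, with an adjusted p of 1 in limma. No detection calls were used, so signals of this size may lie near background.

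**Figure D4:**
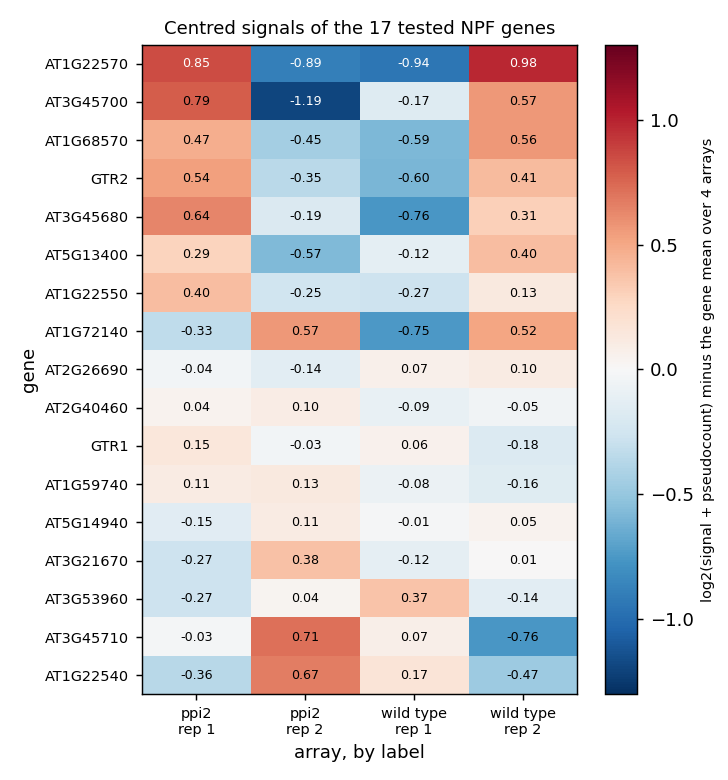
Log2 signal minus the gene's mean over the 4 arrays (colour and printed value) for the 17 tested NPF genes (rows), by array label (columns), ordered by the level on ppi2 replicate 1 and wild type replicate 2 minus that on the other arrays. AT1G22570 at the top runs from -0.94 to 0.98, GTR1 near the middle from -0.18 to 0.15, and AT1G22540 at the bottom has the opposite signs to AT1G22570.

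Of the genes that make the cargo of GTR1 and GTR2, few could be read. Of 48 genes of glucosinolate synthesis, 5 had a probe set of their own and 4 were tested, and all 4 had labelled differences above 0, as did 48.8% of all tested probe sets, with a median of 0.20. The median was -0.03 without wild type replicate 1, 0.08 without ppi2 replicate 2 and 0.39 without wild type replicate 2. None passed the test (limma adjusted p of 1 for each). BCAT4, which starts the chain elongation of methionine, read 4367 and 4932 in ppi2 and 3591 and 4548 in wild type. GSTU20, a glutathione S-transferase, read 2396 and 2931 against 1985 and 2689. In both genes wild type replicate 1 was the lowest array and the groups overlapped.

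UGT74B1, the glucosyltransferase that adds the sugar, differed most between arrays among the 4 tested genes of this list. It read 1400 and 981 against 620 and 1354, with log2 differences of 1.16 in number 1 and -0.46 in number 2, and was high on the arrays where GTR2 was high. AT2G31790 read 589 and 651 against 520 and 638, within 1.25-fold. AOP3, of side-chain modification, was dim, at 22.4 and 51.5 against 66.4 and 47.1.

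PYK10, a beta-glucosidase of endoplasmic reticulum bodies in roots and seedlings, was the 1 gene of 14 on the breakdown list with a probe set of its own. It read 6457 and 13175 in ppi2 and 14457 and 7370 in wild type, so it was low on the arrays where GTR2 was high. Its labelled difference was -0.16 (SE 0.53, limma adjusted p = 1). NRT2.5, a high-affinity nitrate transporter, was the 1 gene of 41 on the list of nitrate transport and assimilation with a probe set of its own, and it was dim, at 1.62 and 42.5 against 10.6 and 1.80. The annotation used left 8730 probe sets without a name, so a gene of these lists without an assigned probe set may still be on the array, and such genes, nitrate assimilation enzymes among them, were not analysed here.

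The gibberellin receptors were the 3 genes of 24 on the gibberellin list with a probe set of their own. GID1B read 400 and 215 in ppi2 and 88.3 and 196 in wild type, so both ppi2 arrays were above both wild-type arrays, as in 6.12% of the tested probe sets. Its log2 difference was 1.11 (SE 0.56, unadjusted p = 0.112, limma adjusted p = 1), which did not pass the test. GID1A read 632 and 624 against 503 and 757, and GID1C 147 and 163 against 164 and 127, and both overlapped between groups. GID1A was higher in ppi2 in number 1 and lower in number 2, as were AT1G68570 and 41.1% of all tested probe sets. The ppi2 values of GID1A were 1.01-fold apart. GID1C ran the other way, and GID1B was higher in ppi2 in both numbers.

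**Figure D5:**
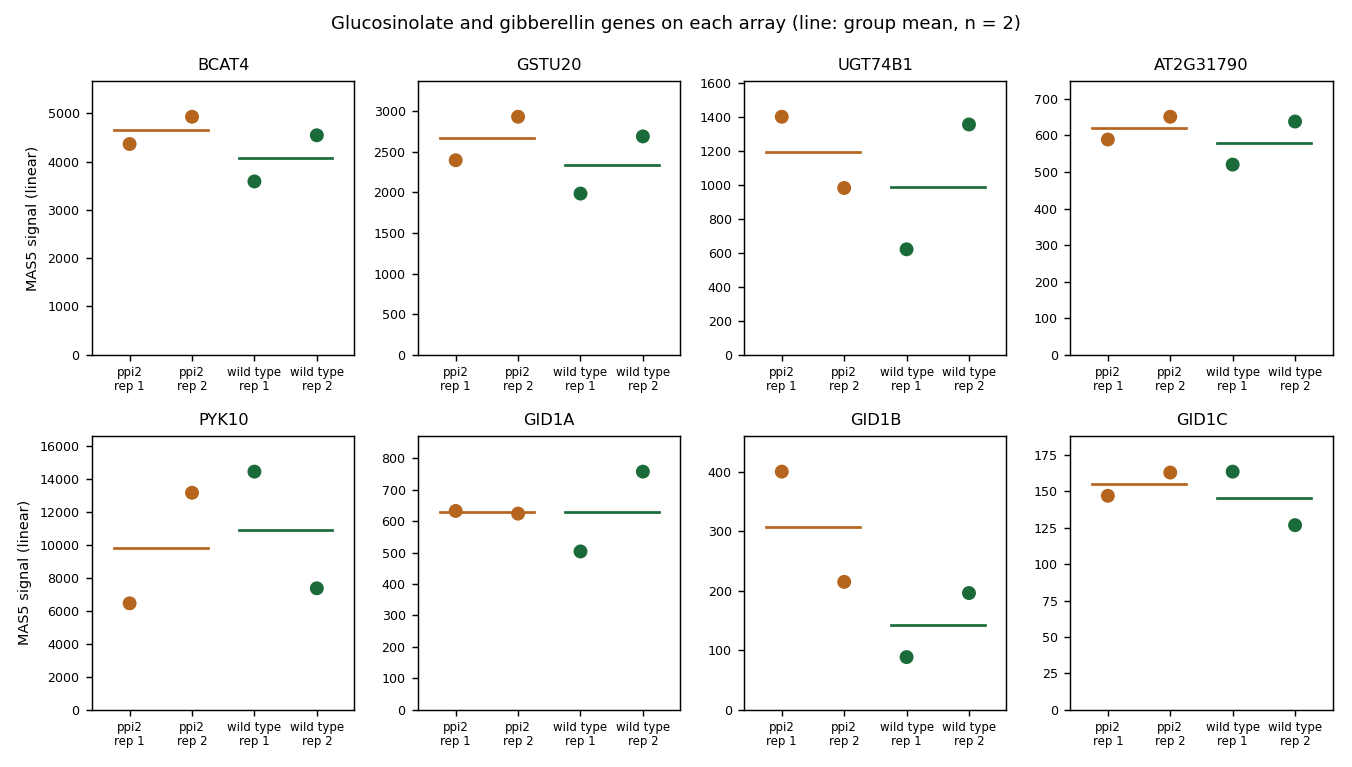
MAS5 signal on a linear axis (vertical) of 4 glucosinolate synthesis genes, PYK10 and the gibberellin receptors GID1A, GID1B and GID1C on each of the 4 arrays (horizontal), with points for arrays and lines for group means of 2 arrays. UGT74B1 is high on ppi2 replicate 1 and wild type replicate 2, PYK10 is low there, and GID1B is the 1 gene whose groups do not overlap.

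The summed leaf marker signal differed between the arrays on which GTR2 and AT1G68570 were high and low. The summed signal of the 4 leaf markers with a probe set (LHCB4.1, LHCB4.2, LHCB4.3 and RCA, of 20 listed) was 24731 and 85183 in ppi2 and 92412 and 24964 in wild type. It was thus low where both transporter genes were high. Most of its change came from the antenna genes LHCB4.1 and LHCB4.2, which ranged 4.40-fold and 42.1-fold over the arrays. RCA ranged 1.57-fold. LHCB4.3 read 167 and 202 in ppi2 and 315 and 198 in wild type, so it was nearly level between the replicate 2 arrays. The 4 root markers with a probe set (EXPA7, EXPA18, AT5G66390 and AT4G30170, of 15 listed) summed to 1450 and 1842 against 1676 and 1524. This sum had a narrower range, in the direction of the leaf sum, as did EXPA18 and AT5G66390. Within wild type, EXPA7 ran the other way (71.8 and 88.2) and AT4G30170 was level (927 and 933). No marker was listed at 0 on any array, and LHCB4.1, RCA and the root gene AT4G30170 were far above the signal filter of 124 on all 4.

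In whole plants, fewer cells of a type and less RNA per cell cannot be told apart. The median of the hybridisation controls was 840 and 1669 in ppi2 and 1514 and 1106 in wild type, lower where GTR2 and AT1G68570 were high. Spiked poly-A controls read 1575 and 477 against 2386 and 481, higher on both replicate 1 arrays. The part of the leaf content, of the organ mix and of the hybridisation in the transporter signals was not tested.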

How the data were processed

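The authors deposited MAS5 signal intensities, linear and 1 per probe set, per the submitters' processing notes. Neither its version nor its scaling target is given in the sources used here. No detection calls were used. Of 22810 probe sets, 64 controls were left out. The platform annotation gave 13513 probe sets a single gene and 503 several, and 8730 had no name here; 13436 were matched to the RefSeq gene table of TAIR10.1, used for names, chromosomes and gene order.

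Before log2, 7.99 was added to every signal as a pseudocount (their 10th percentile), which shrinks the differences of dim genes. A gene with several probe sets kept its brightest (157 removed). A mean signal of at least 124 (40th percentile) was required, which removed 8985 and left 13604. The test was limma 3.58.1 (R 4.3.3), with lmFit, eBayes and a mean-variance trend. Group was its single term, tests were two-sided, and the threshold was 0.05 after Benjamini-Hochberg adjustment. The fit was tested on simulated arrays with independent noise. The real arrays were closest across labels, so that test does not show how the fit performs on them. Arrays were grouped by title, and their number limits precision. Alternatives changed the scaling (quantile or median), the pseudocount, the filter, the variance model, the choice of probe set, the arrays kept and the replicate number as a block.

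The members and lists were chosen with earlier results of these data known. Named were the 4 transporters, other NPF genes with a probe set of their own, up to 4 brightest members of each other list and the 3 nearest genes of each transporter. Other genes named beyond that rule, AOP3 among them, were added after their values were seen. Figures were drawn with matplotlib 3.10.9.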

Additional observations from a re-analysis of the deposited data

How the results depend on the processing

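Under each of the 14 alternatives run, 0 probe sets passed the threshold in limma. The labelled differences of GTR1, GTR2, AT1G68570 and AT3G21670 passed the threshold under none of them. Apart from leaving out arrays, they kept their sign, ranging from 0.11 to 0.18 for GTR1, 0.18 to 0.24 for GTR2, 0.02 to 0.08 for AT1G68570 and 0.10 to 0.17 for AT3G21670. Changing the filter, the variance model, the choice of probe set or the block cannot move these estimates. The ranges therefore come from the scaling and the pseudocount alone. Leaving out 1 array, with its partner taken to be as variable as the other group, gave -0.00085 to 0.24 for GTR1, -0.32 to 0.69 for GTR2, -0.55 to 0.60 for AT1G68570 and -0.22 to 0.43 for AT3G21670. The sign turned for GTR1 without wild type replicate 2, for GTR2 and AT1G68570 without ppi2 replicate 1 (-0.26 and -0.43) and without wild type replicate 1 (-0.32 and -0.55), and for AT3G21670 without ppi2 replicate 2. Fewer arrays then carry each mean. Differences within a replicate number moved by less than the replicate spread in all 32 values. That spread is the SD within labels, which is wide on these arrays, so the measure is lenient. For GTR1 in number 1, 0.09 became 0.0015 after quantile normalization and 0.23 after median centring. The NPF family median of 0.12 was -0.07 without wild type replicate 1, and 7 of 17 genes were then above 0. Arrays of the same number deviated in opposite directions (r = -0.818 across probe sets), so they were not treated as pairs. An exchange of labels within a number would give the same sign, so this does not show that the numbers share no batch. With the number as a replicate block the differences were 0.12, 0.18, 0.03 and 0.11 for GTR1, GTR2, AT1G68570 and AT3G21670. A block in this balanced design cannot change them. The count of calls was 0. With crossed pairs as a block, a fit added after seeing the data, 0 passed, with 554 of 13604 probe sets at an unadjusted p under 0.05 in limma. With no detection calls, nearness to background limits what the 17 dim NPF genes show.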
